A study of Mus musculus with 2 samples.

Results

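Type I interferon-stimulated genes were followed in 2 single-cell RNA libraries of adult mouse lung, through 38 listed genes of which 37 were found by symbol among the 31053 genes of the matrices. Mx2 had no entry under that symbol. The list mixes secreted, antiviral, sensing and regulatory products, and 12 of its members (Isg15, Ifit1, Ifit2, Ifit3, Ifi44, Irf7, Oasl1, Oasl2, Rsad2, Usp18, Cmpk2 and Mx1) are called the inducible members here because they are textbook genes that are low at rest and strongly switched on by interferon. These 12 were chosen with earlier results of these data known, so counts over them describe the libraries and support nothing independently.

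The tamoxifen library came from tamoxifen-injected mice and the oil library from oil-injected mice. The animals of both were adult Gli1creERT/Hhipflo/flox mice, in which a tamoxifen-dependent Cre made from the Gli1 gene can remove floxed Hhip, which encodes a cell-surface inhibitor of Hedgehog signalling. Gli1 is made mainly by mesenchymal cells, so the sorted immune cells are not the cells in which the allele is meant to be lost. Live cells positive for CD45 and not stained by a CD45 antibody given into the blood were sorted, and each library was made with 10x 3' v3 chemistry. There is 1 library per group, so no test, p-value or replicate error exists, and tamoxifen exposure cannot be told apart from deletion or from any difference between the animals. The number and sex of the mice are not in the labels, yet cells of both sexes were found in each library, so each pools at least 2 mice.

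Type I interferons are secreted proteins that bind a receptor made of IFNAR1 and IFNAR2 on most nucleated cells. Receptor-bound kinases then switch on a complex that holds STAT2 and IRF9 and binds a DNA element called the interferon-stimulated response element (ISRE) in front of the genes studied here. In lung, these genes restrict respiratory viruses, and macrophages and dendritic cells both make and answer interferon.

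The ISRE core was searched as GAAA, any 2 bases and GAAA again, on both strands, in the promoter sequences that RefSeq gives for GRCm38.p6 (250 bases before to 50 after each start). It was found for 16 of the 28 members with a promoter entry (57.1%), against 1079 of 27025 genes in the whole table (3.99%). Because 9 members had no entry, the share does not describe the full list. Of the 12 inducible members 10 had an entry, and the core was found for 4 of them but not in the windows of Irf7, Oasl1, Oasl2, Ifi44, Ifit2 and Cmpk2. The 160 bases before the RefSeq start of 4 members that the results turn on, chosen among those that hold the core, are printed 5′ to 3′ on the strand of the gene, with each ISRE core, in either orientation, in capitals. Isg15 lies at chr4:156200819-156200978 (minus strand), Ifit1 at chr19:34640729-34640888 (plus), Rsad2 at chr12:26456453-26456612 (minus) and Oas3 at chr5:120777660-120777819 (minus).
Isg15: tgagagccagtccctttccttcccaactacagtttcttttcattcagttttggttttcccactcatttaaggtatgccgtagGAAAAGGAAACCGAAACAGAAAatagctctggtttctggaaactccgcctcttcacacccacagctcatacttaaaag
Ifit1: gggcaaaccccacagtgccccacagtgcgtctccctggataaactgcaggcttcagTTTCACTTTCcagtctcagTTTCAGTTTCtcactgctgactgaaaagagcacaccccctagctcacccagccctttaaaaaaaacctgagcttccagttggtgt
Rsad2: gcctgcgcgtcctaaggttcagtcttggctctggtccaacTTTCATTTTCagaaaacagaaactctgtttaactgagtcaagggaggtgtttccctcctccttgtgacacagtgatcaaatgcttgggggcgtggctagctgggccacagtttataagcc
Oas3: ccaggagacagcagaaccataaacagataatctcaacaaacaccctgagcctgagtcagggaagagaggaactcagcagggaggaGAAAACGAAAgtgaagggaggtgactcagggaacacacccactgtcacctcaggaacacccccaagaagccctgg
In Isg15 the capitals hold 3 overlapping copies, which begin 78, 72 and 66 bases before the start. The Ifit1 stretch holds 2 copies on the opposite strand, and the Rsad2 and Oas3 stretches hold 1 each. A match describes the letters only and is no evidence of binding.

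The tamoxifen library held 83730550 unique molecular identifiers (UMIs, each standing for a captured RNA molecule) in 12980 barcodes, and the oil library 57704412 UMIs in 10342 barcodes. With at least 300 genes and under 10% mitochondrial UMIs, 10138 tamoxifen barcodes (78.1%) and 6794 oil barcodes (65.7%) were kept, with medians of 6431 and 6360.5 UMIs. Of all barcodes, 20.7% in tamoxifen and 31.9% in oil exceeded the mitochondrial limit. Ptprc, which encodes CD45, had UMIs in 85.6% of kept tamoxifen cells and 83.1% of kept oil cells. Hhip had 29 UMIs in 13 tamoxifen cells and 40 UMIs in 24 oil cells, and Gli1 9 UMIs in each library, so the sorted cells hardly report on the deletion. There were 41 barcode sequences present in both libraries, 18 of them among kept cells of both. Levels are UMIs per 1000000 UMIs of the same cells (CPM). Ratios are log2 of tamoxifen over oil, followed by a 95% interval that covers counting error only, for PCR, dissociation and animals add error that these data cannot show. The interval also treats UMIs as independent, so it is too narrow where a few cells hold many of them.

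Cells were taken by gates on a few genes: T (any Cd3d, Cd3e or Cd3g), Ncr1/Klre1 (natural killer genes), B (Cd79a), alveolar macrophage (Krt79 and Plet1), C1q (C1qa and C1qb, complement genes of interstitial macrophages), Xcr1/Clec9a (type 1 dendritic cell genes), Mgl2/Cd209a (type 2 dendritic cell genes) and Dcn/Col1a2 (fibroblast genes). The gates held 5127, 221, 415, 2507, 1262, 701, 1659 and 85 tamoxifen cells in that order, and 3019, 317, 233, 476, 1221, 539, 2035 and 99 oil cells. They overlap: 79.2% of C1q-gate barcodes in tamoxifen and 90.2% in oil also passed another gate, mostly Mgl2/Cd209a (69.7% and 86.7%). Each gate had UMIs of every one of its own markers in both libraries, but 3 gates held more RNA of another type's markers than of their own in at least 1 library. Barcodes of the Mgl2/Cd209a gate carried 6190 CPM in tamoxifen and 6417 CPM in oil of 6 C1q macrophage markers, more than the 2516 and 3324 CPM of its own 6. The Ncr1/Klre1 gate carried 1286 CPM in tamoxifen and 1965 CPM in oil of type 2 dendritic cell markers and 1181 and 967 CPM of T cell markers, beside 577 and 1212 CPM of natural killer markers. The Xcr1/Clec9a gate carried 1602 CPM in tamoxifen and 1942 CPM in oil of type 2 dendritic cell markers, beside 1843 and 1934 CPM of its own, so it did so only in oil and only just. These gates are therefore called by their genes.

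Across all kept cells the members summed to 910 CPM in tamoxifen and 1030 CPM in oil, a log2 ratio of -0.18 (-0.19 to -0.16). Of 36 members with at least 20 UMIs over both libraries (called measured), 10 were at least 1.5-fold higher and 3 at least 1.5-fold lower in tamoxifen. In all kept cells 10.3% of 15373 measured genes were that much higher and 12.1% that much lower. The median member ratio was 0.18, beside 0.07 for all measured genes. Ifitm3, an endosomal protein that blocks virus entry, gave 17.6% of member UMIs in tamoxifen and 26.7% in oil. Ifitm3 stood at 160 CPM in tamoxifen and 275 CPM in oil, and without the 3 most abundant members the sum ratio was 0.056. In barcodes of 1 gate or none, with each such group given the same weight in both libraries, the sum ratio of all members was 0.25. That leaves out 2418 tamoxifen and 1896 oil barcodes of more than 1 gate. The direction thus depends on which cells and members are taken and on how the cells are weighted. Oas3 (226 UMIs in tamoxifen and 64 in oil, 1.23), Zbp1 (1506 and 533, 0.91), Ifih1 (1504 and 624, 0.68) and Irf7 (1072 and 438, 0.70) were higher over all kept cells. Phf11b was lower, at 26.4 CPM in tamoxifen and 41.5 CPM in oil (-0.65), as was Mx1 at 2.92 and 4.76 CPM (-0.71). Ifi213 had 9 UMIs in tamoxifen and 5 in oil and was not measured. The inducible members summed to 69.9 CPM in tamoxifen and 53.6 CPM in oil over all kept cells (0.38, 0.32 to 0.45). The 1% of cells with the most held 46.2% of these UMIs in tamoxifen and 36.3% in oil. In female cells the ratio was 0.57, and in male cells 0.097 (-0.064 to 0.26).

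By gate, summed members were close in T cells (803 CPM in tamoxifen, 816 CPM in oil) and in alveolar macrophages (587 and 598 CPM). They were higher in tamoxifen in the B gate (752 against 657 CPM, 0.20) and in the C1q gate (1353 against 1257 CPM, 0.11). They were lower in the Ncr1/Klre1 gate (815 against 968 CPM, -0.25), the Xcr1/Clec9a gate (759 against 887 CPM, -0.22), the Mgl2/Cd209a gate (990 against 1198 CPM, -0.28) and the Dcn/Col1a2 gate (1921 against 2245 CPM, -0.22). Over the 8 gates, 57 of 240 measured pairs of a member and a gate (23.8%) were at least 1.5-fold higher in tamoxifen, beside 10.1% of such pairs over all genes. Another 32 (13.3%) were at least 1.5-fold lower, beside 7.26% over all genes. At 2-fold, 28 pairs were higher and 16 lower, beside 3.9% and 2.72% of pairs over all genes. With cells thinned to 1500 UMIs, 17 of 138 pairs (12.3%) were 1.5-fold higher and 17 lower, beside 11.5% and 7.97% of pairs over all genes. The share of members higher was then close to that of all genes. Only 138 of the pairs were still measured, against 240 before, so the shares before and after thinning cover different sets of pairs. In male cells 19 of 147 pairs (12.9%) were higher and 30 (20.4%) lower, beside 9.66% and 11.2%. Pairs share cells wherever gates overlap, so they are not independent.

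Members were spread over the gates unevenly. Ifitm3 was highest in the Dcn/Col1a2 gate, and lowest in alveolar macrophages in tamoxifen (27.5 CPM) and in the B gate in oil (14.2 CPM). Ifi27l2a was highest in the C1q gate (355 CPM in tamoxifen, 405 CPM in oil) and lowest in alveolar macrophages. Samd9l, Trim30a and Phf11b were highest in the Xcr1/Clec9a gate in both libraries, Zbp1 in the B gate and Ifih1 in alveolar macrophages (33.0 and 24.0 CPM). Isg15 was highest in the C1q gate in tamoxifen (33.6 CPM) and in the B gate in oil (43.1 CPM), where 1 cell gave 50 of the 112 UMIs. The oil value next to it was 33.7 CPM in the Ncr1/Klre1 gate. The same gate led in both libraries for each of these but Isg15. Among the other members some kept their leading gate, such as Ifi44 and Oas1a (C1q gate), and some did not. Irf7 and Rsad2 were highest in the C1q gate in tamoxifen and in the Ncr1/Klre1 gate in oil. Bst2 was highest in the C1q gate in tamoxifen and in the Dcn/Col1a2 gate in oil.

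**Figure D1:**
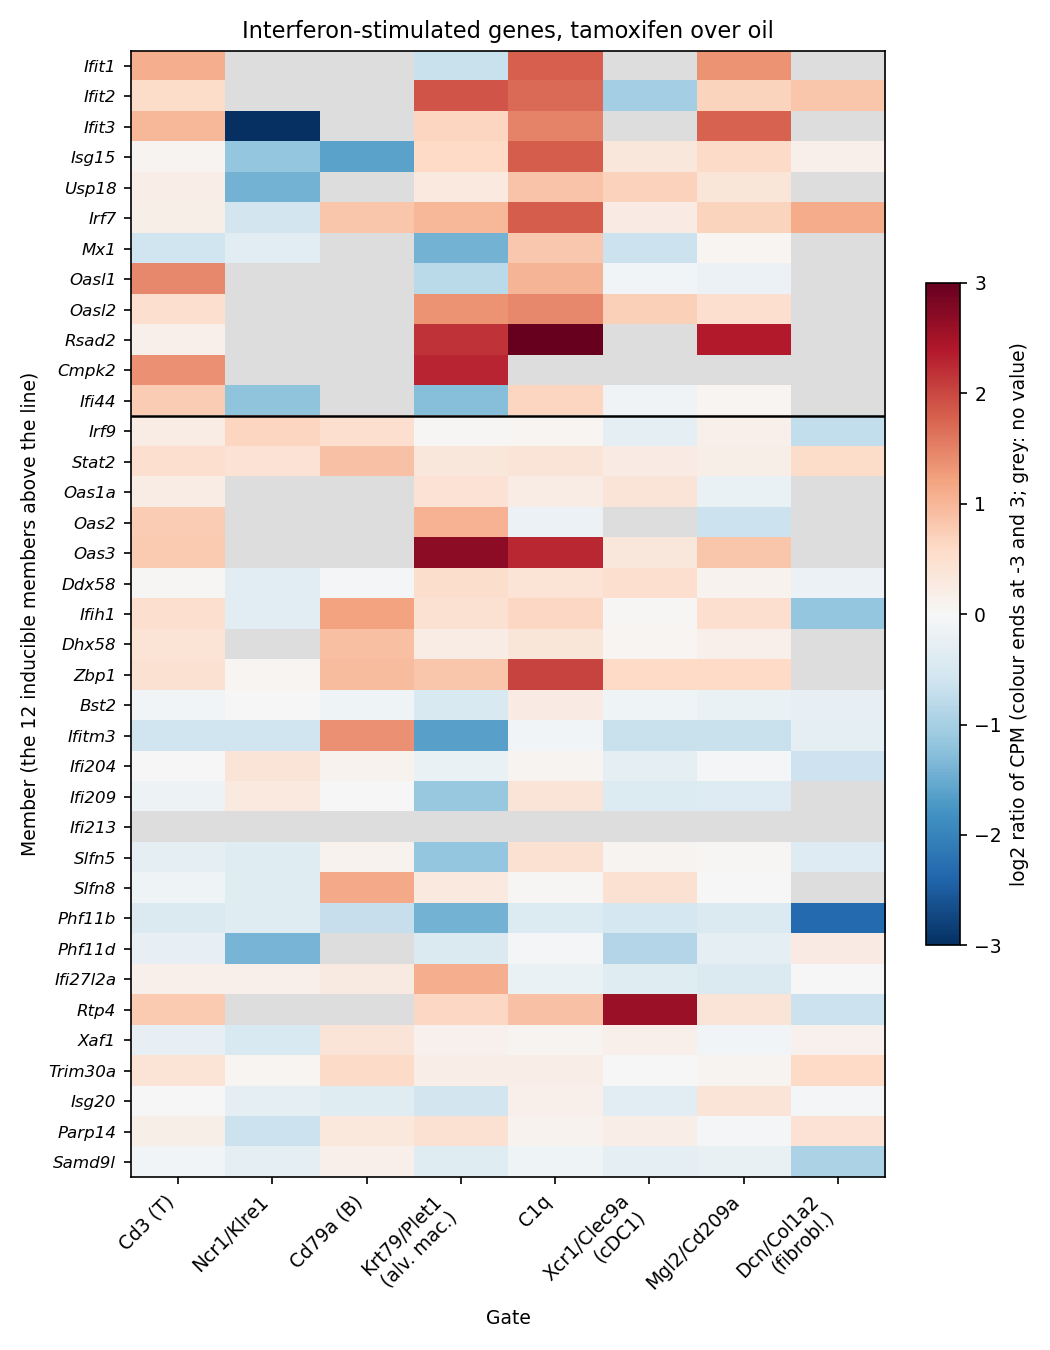
Log2 ratio of CPM, tamoxifen over oil, for each member (rows) in each gate (columns), with red for higher in tamoxifen and blue for lower. Grey stands for no value, meaning under 20 UMIs or no UMI in a library. Rsad2 in the Ncr1/Klre1 gate is grey because it had no UMI in tamoxifen. The C1q column holds 15 members at least 1.5-fold higher and 0 that much lower, and 11 of the 15 are among the 12 inducible members above the line.

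Of the 8 gates, the C1q gate held the most members higher in tamoxifen. In it 15 of 35 measured members were at least 1.5-fold higher in tamoxifen and 0 at least 1.5-fold lower, beside 8.23% and 6.42% of 12077 measured genes. The median ratio was 0.38 for members and 0.07 for all genes. The 12 inducible members accounted for 11 of the 15, and all 11 of them that were measured were past 1.5-fold. Their UMIs summed to 1646 (122 CPM) in tamoxifen and 498 (41.9 CPM) in oil, a ratio of 1.54 (1.40 to 1.69). Of the other 24 measured members, 4 were at least 1.5-fold higher and their median ratio was 0.18.

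Isg15 encodes a ubiquitin-like protein that is attached to other proteins, and in the C1q gate it had 453 UMIs (33.6 CPM) in tamoxifen and 114 UMIs (9.60 CPM) in oil, a ratio of 1.81 (1.51 to 2.12). Usp18, which removes ISG15 and restrains the receptor, had 91 UMIs (6.75 CPM) in tamoxifen and 44 UMIs (3.70 CPM) in oil (0.87, 0.33 to 1.42). Both genes were higher in the tamoxifen library, Isg15 more so.

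The IFIT proteins bind viral RNA, and their genes sit side by side on GRCm38 chromosome 19, from Ifit2 (34550694 to 34576419) through Ifit3 (34583531 to 34588731) to Ifit1 (34640871 to 34650009). In the C1q gate Ifit1 had 83 UMIs (6.16 CPM) in tamoxifen and 21 (1.77 CPM) in oil, a ratio of 1.80 (1.10 to 2.57). Ifit2 had 66 and 18 UMIs (1.69, 0.92 to 2.53), and Ifit3 had 64 and 20 UMIs, with an interval of 0.75 to 2.30. In tamoxifen the leading cell gave 28 of the 66 Ifit2 UMIs, 19 of the 64 of Ifit3 and 18 of the 83 of Ifit1, each counted by gene. In oil it gave 6 of the 20 Ifit3 UMIs and 6 of the 21 of Ifit1. Reads of Ifit3 and its near copy Ifit3b may have been split between them, and Ifit3b itself had 61 UMIs in tamoxifen and 5 in oil.

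Rsad2 encodes viperin, which makes a chain-terminating nucleotide against viral polymerases. It had 117 UMIs (8.68 CPM) in tamoxifen and 8 UMIs (0.67 CPM) in oil, the largest ratio among measured members of the gate at 3.69 (2.66 to 4.93). It was found in 32 of the 1262 tamoxifen cells (2.54%) and 5 of the 1221 oil cells (0.41%). The cell with the most gave 34 of the 117 UMIs. Cmpk2, its neighbour on chromosome 12, encodes the kinase that supplies viperin's substrate and had 13 UMIs in tamoxifen and 2 in oil, under the limit for a measured member.

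Among transcription factors, Irf7, the factor that amplifies interferon production, had 330 UMIs (24.5 CPM) in tamoxifen and 83 UMIs (6.99 CPM) in oil (1.81, 1.46 to 2.17). Irf9, the DNA-binding partner of STAT2, was at 25.9 CPM in tamoxifen and 24.8 CPM in oil (0.06, -0.17 to 0.29). Stat2 was at 19.2 CPM in tamoxifen and 14.7 CPM in oil (0.38, 0.10 to 0.66). Only Irf7 of these was past 1.5-fold.

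Of the oligoadenylate synthetase family, which activates an RNA-cutting enzyme or binds RNA, 3 of 5 measured members were past 1.5-fold. Oas3 had 54 UMIs (4.01 CPM) in tamoxifen and 10 UMIs (0.84 CPM) in oil (2.25, 1.26 to 3.39), and Oasl2 had 202 UMIs in tamoxifen and 66 UMIs in oil (1.43, 1.02 to 1.86). Oasl1 had 16 and 7 UMIs (1.01, -0.35 to 2.53), an interval that includes 0. Oas1a (0.23) and Oas2 (-0.18) were within 1.5-fold.

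Of the 4 nucleic acid sensors, Zbp1, which senses Z-form nucleic acid and can start cell death, had 333 UMIs (24.7 CPM) in tamoxifen and 72 UMIs (6.06 CPM) in oil (2.03, 1.66 to 2.42). The RNA helicase sensor Ifih1 (MDA5) was at 20.7 CPM in tamoxifen and 13.4 CPM in oil (0.63, 0.34 to 0.92). Ddx58 (RIG-I) and Dhx58 (LGP2) had ratios of 0.42 and 0.36. All 4 were thus higher in tamoxifen, 2 of them past 1.5-fold.

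The remaining members of the C1q gate were closer together. Mx1, a GTPase that traps influenza virus, had 56 UMIs in tamoxifen and 28 in oil (0.82, 0.14 to 1.53), and Ifi44 had 155 and 87 (0.65, 0.26 to 1.05). Rtp4, a chaperone of membrane receptors, had 119 UMIs in tamoxifen and 57 in oil (0.88, 0.41 to 1.36). These 3 were past 1.5-fold. Slfn5, of the Schlafen family, was at 52.9 CPM in tamoxifen and 38.4 CPM in oil (0.46, 0.29 to 0.64), and the nucleic acid-binding PYHIN genes Ifi209 and Ifi204 had ratios of 0.38 and 0.079. Phf11b was the most shifted downward, at 25.2 CPM in tamoxifen and 33.7 CPM in oil (-0.42, -0.63 to -0.21), within 1.5-fold. Samd9l, a restriction factor of poxviruses, had -0.13, the RNA exonuclease gene Isg20 0.14, Xaf1, a cell death gene, 0.075, Slfn8 0.028 and Phf11d -0.056.

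The abundant members did not follow. Ifi27l2a, which encodes a small interferon-induced protein, was at 355 CPM in tamoxifen and 405 CPM in oil (-0.19, -0.25 to -0.13), and Ifitm3 at 283 and 298 CPM (-0.07, -0.14 to -0.01). Bst2, a tether that holds budding virus at the cell surface, was at 85.8 CPM in tamoxifen and 72.1 CPM in oil (0.25, 0.12 to 0.38). Parp14, an ADP-ribosyltransferase, was at 62.9 and 58.2 CPM (0.11), and Trim30a, a regulator of inflammatory signalling, at 57.8 and 50.0 CPM (0.21). In female cells and in barcodes of the C1q gate alone Ifitm3 turned the other way (0.17 and 0.38). In male cells Bst2 (-0.30) and the sum of all members (-0.41) did. Ifi27l2a and Ifitm3 have the most UMIs of all members here, and the sum of all members had a ratio of 0.11 where the inducible sum had 1.54.

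**Figure D2:**
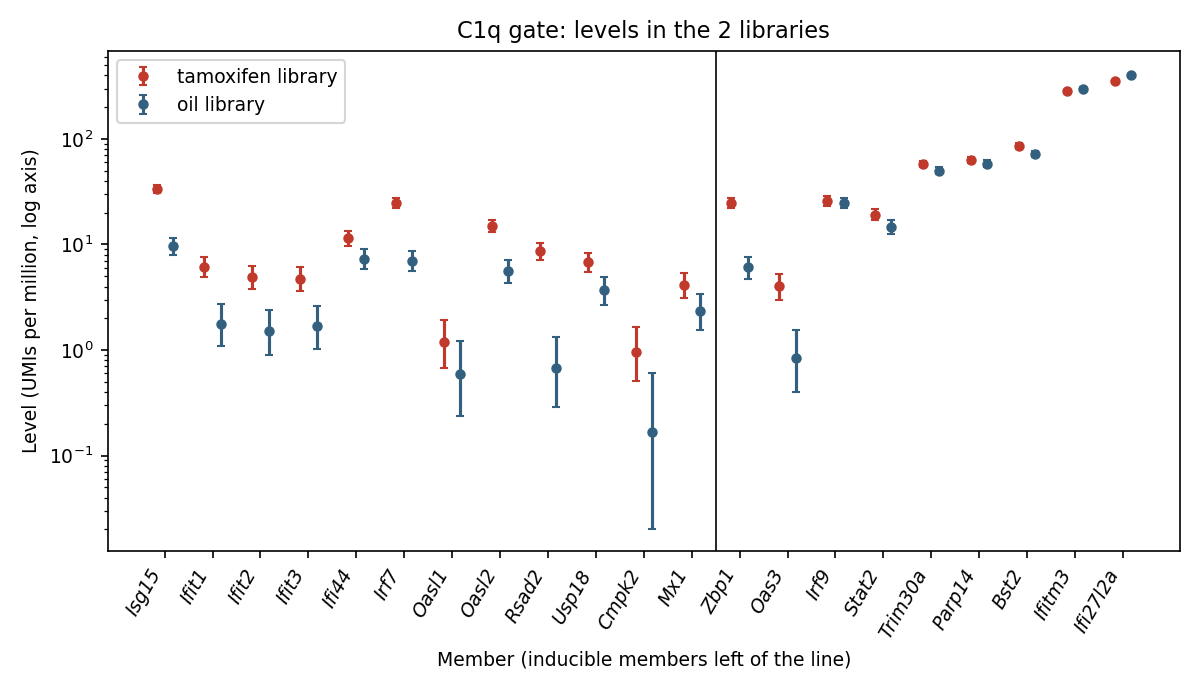
Levels in the C1q gate (CPM, log axis) of the 12 inducible members, left of the line, and of 9 others, with tamoxifen (red) left of oil (blue) and 95% counting intervals. All the inducible members lie higher in tamoxifen, for instance Isg15 at 33.6 against 9.60 CPM, while Ifitm3 and Ifi27l2a lie slightly lower in the whole gate, though not in barcodes of the C1q gate alone (0.38 and 1.21).

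The inducible UMIs of the C1q gate sat in few cells. Some inducible UMI was found in 264 of 1262 tamoxifen cells (20.9%) and in 238 of 1221 oil cells (19.5%), shares that hardly differ. The 1% of cells with the most carried 43.3% of the inducible UMIs in tamoxifen and 33.3% in oil, and 19 tamoxifen cells carried 50.0% of the total where 37 oil cells did. Without the 1% of cells with the most in each library, the ratio was 1.31, on 934 and 332 UMIs. No gate lacks these genes by type, so a share that free RNA alone would give could not be set beside these shares.

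When every cell was thinned to 1500 UMIs, 13 of 1237 tamoxifen cells (1.05%) and 1 of 1197 oil cells (0.084%) of the C1q gate had at least 3 inducible members, with exact Clopper-Pearson intervals of 0.56% to 1.79% and 0.0021% to 0.465%. That oil share rests on 1 cell. Thinned to 3000 UMIs the counts were 19 of 1169 tamoxifen cells (1.63%, 0.98% to 2.53%) and 6 of 1118 oil cells (0.54%, 0.20% to 1.16%), intervals that overlap, and thinned to 1000 UMIs 9 of 1257 and 2 of 1211. Before thinning the counts were 76 cells (6.02%) in tamoxifen and 16 cells (1.31%) in oil, at medians of 9666.5 and 8554 UMIs per cell. Among all kept cells, thinning left 9108 tamoxifen and 5868 oil cells and dropped 1030 and 926 shallower cells. Of the cells left, 26 (0.285%, 0.187% to 0.418%) in tamoxifen and 9 (0.153%, 0.0702% to 0.291%) in oil had at least 3, and those intervals overlap. Cells of 1 library are not replicates of a condition, so these intervals, overlapping or not, are no test between the libraries. C1q-gate cells made up 13 of the 26 in tamoxifen and 1 of the 9 in oil, while they were 13.6% and 20.4% of the cells.

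**Figure D3:**
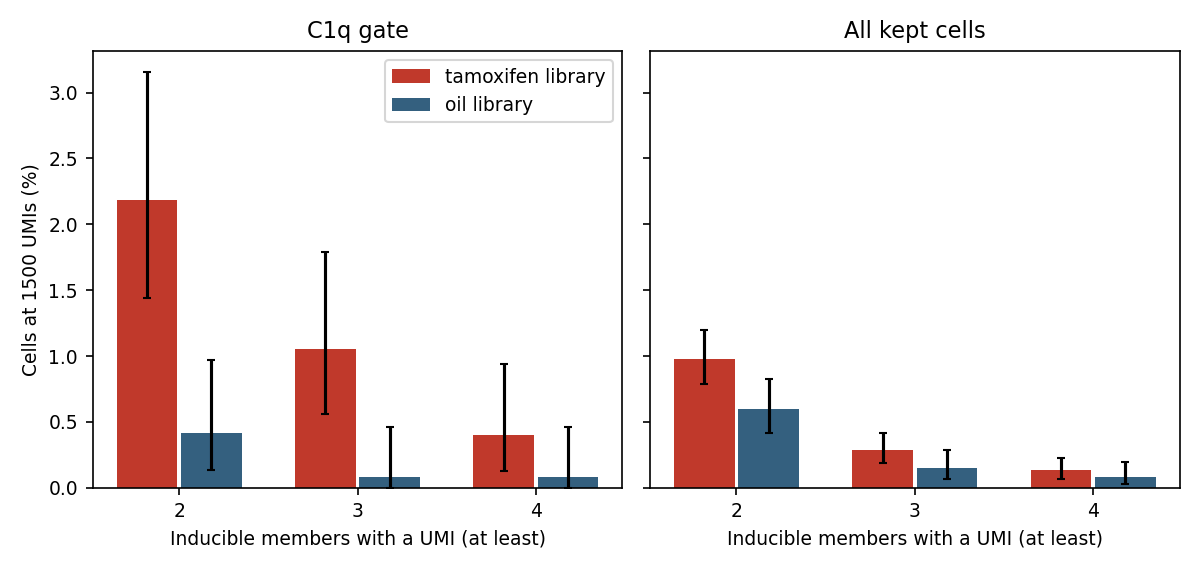
Percent of cells, thinned to 1500 UMIs, with a UMI of at least 2, 3 or 4 inducible members, in the C1q gate (left) and in all kept cells (right), tamoxifen in red and oil in blue, with exact 95% binomial intervals. In the C1q gate the tamoxifen bars are the taller at each count, 1.05% (13 cells) against 0.084% (1 cell) at 3 or more.

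Inducible members were often, though not always, found together in the same cells. At 1500 UMIs, 17 of 41 tamoxifen C1q-gate cells with Isg15 (41.5%) had another inducible member, against 54 of 1196 cells without Isg15 (4.52%). In oil 3 of 11 cells with Isg15 (27.3%) and 38 of 1186 without it (3.20%) had another. Of the 8 tamoxifen cells with Rsad2, 7 had another inducible member, against 87 of 1229 without it. Of the 25 with Irf7, 11 did, against 70 of 1212 without it. In oil 1 of 2 cells with Rsad2 and 3 of 9 with Irf7 had another. For Mx1 it was 0 of 6 oil cells, against 43 of 1191 without it, and 3 of 6 tamoxifen cells. In the T gate 1 of 58 oil cells with Irf7 had another, against 113 of 2686 without it, and 18 of 100 tamoxifen cells with it did. Over all kept cells 57 of 207 tamoxifen cells with Isg15 (27.5%) had another, and 26 of 126 in oil (20.6%).

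A few cells expressed nearly the whole list. The tamoxifen cell with the most carried all 12 inducible members and 35 of the 37 members, in 412 of its 18441 UMIs. It came from a female, had 277 C1qa and C1qb UMIs and 2 Cd3 UMIs, and so counts in the T, C1q and Mgl2/Cd209a gates together, where its 178 inducible UMIs were 7.88%, 10.8% and 16.9% of the tamoxifen total. The next cell, from a male and in the Mgl2/Cd209a gate only, had 12 inducible members and 509 member UMIs of 15826. A T-gate cell with 10 inducible members carried 3652 UMIs of the neutrophil genes S100a8 and S100a9. In oil the leading cell had 12 inducible members and 192 member UMIs of 7403, and lay in the Ncr1/Klre1 gate.

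**Figure D4:**
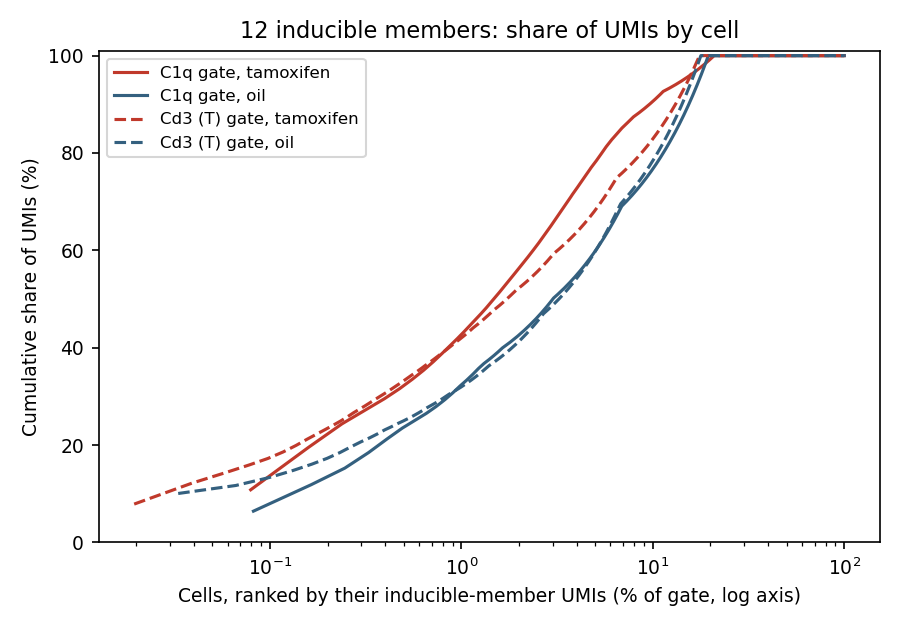
Cumulative share of inducible-member UMIs (%) against cells ranked by them (% of the gate, log axis), for the C1q gate (solid) and the T gate (dashed) in tamoxifen (red) and oil (blue). At 1% of C1q-gate cells the curves stand at 43.3% in tamoxifen and 33.3% in oil.

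Sex of the cells divided the C1q result. A cell counted as female if it had Xist but none of the Y-linked genes Uty, Kdm5d, Eif2s3y and Ddx3y, and as male if it had any of these but no Xist. In 740 tamoxifen and 631 oil female C1q-gate cells, the inducible members summed to 171 and 44.8 CPM, a ratio of 1.94 (1.75 to 2.12). In 289 tamoxifen and 313 oil male cells they summed to 23.7 and 43.3 CPM, a ratio of -0.87 (-1.30 to -0.44). Of female cells, 68 in tamoxifen (9.19%) and 12 in oil (1.90%) had at least 3 inducible members before thinning, against 1 (0.35%) and 3 (0.96%) of male cells. Cells of one sex in a library may come from 1 mouse, so sex cannot be told apart from animal, and the difference was not tested.

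Member by member, Isg15 in female C1q-gate cells was at 44.7 CPM in tamoxifen and 8.56 CPM in oil (2.39, 1.98 to 2.82). In male cells it was at 7.26 CPM in tamoxifen and 13.2 CPM in oil (-0.87, -1.69 to -0.09). Irf7 was at 36.9 CPM in tamoxifen and 7.33 CPM in oil in female cells (2.33), and had 5 UMIs in tamoxifen and 23 in oil in male cells (-2.17, -3.92 to -0.74). Both genes thus differed in direction between the sexes. Rsad2 counted 109 UMIs in tamoxifen against 6 in oil among female cells, and 2 against 1 among male cells. In female cells 16 of 35 measured members were at least 1.5-fold higher and 0 that much lower in tamoxifen, beside 10.8% and 7.98% of genes. In male cells 0 of 26 were higher and 8 lower, beside 11.2% and 6.60% of genes.

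**Figure D5:**
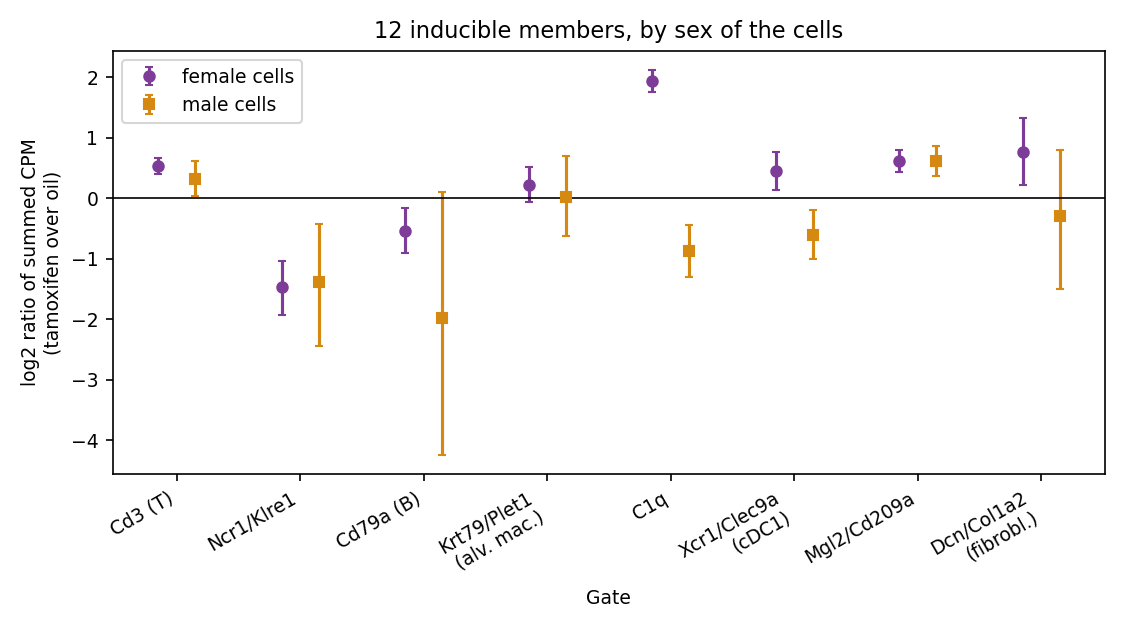
Log2 ratio of the summed CPM of the 12 inducible members, tamoxifen over oil, in female (purple circles) and male (orange squares) cells of each gate, with 95% counting intervals. In the C1q gate the female value is 1.94 and the male value -0.87, while in the Mgl2/Cd209a gate they are 0.62 and 0.61 but rest on few cells, being 0.24 and -0.17 without the cell with the most inducible UMIs in each library.

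Without the cell with the most inducible UMIs in each library and sex, an alternative chosen after seeing the data, the C1q values were 1.91 (1.72 to 2.11) in female and -0.76 (-1.23 to -0.29) in male cells. In the Mgl2/Cd209a gate 1 cell held 178 of the female and 1 cell 157 of the male tamoxifen UMIs. Without them and the leading oil cells that gate's values were 0.24 (0.04 to 0.44) and -0.17 (-0.47 to 0.13).

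Barcodes that passed the C1q gate alone had a larger ratio than those that passed another gate too. In 263 such cells in tamoxifen and 120 in oil, inducible members were at 318 and 72.8 CPM (2.13, 1.77 to 2.50), and 24 of 33 measured members were at least 1.5-fold higher and 0 that much lower. There, 16.9% of genes were that much higher and 11.1% that much lower. Ifi27l2a was higher in them too, at 587 CPM in tamoxifen and 254 CPM in oil (1.21, 1.01 to 1.41). In the 602 tamoxifen and 790 oil cells of the C1q and Mgl2/Cd209a gates only, inducible members were at 45.3 and 34.6 CPM (0.39, 0.13 to 0.65), and 3 of 30 members were higher and 3 lower, beside 4.69% and 7.33% of genes.

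RNA of other cells also differed within the C1q gate. All 7 alveolar macrophage markers had UMIs in both libraries and summed to 602 CPM in tamoxifen and 195 CPM in oil, and to 659 and 144 CPM in female cells. All 5 neutrophil markers summed to 65.8 CPM in tamoxifen and 23.7 CPM in oil. The 6 C1q macrophage markers summed to 11597 and 13289 CPM, and the 6 type 2 dendritic cell markers to 1635 and 2446 CPM. Without barcodes that held at least 3 UMIs of S100a8 and S100a9 the inducible ratio was 1.31, on 1350 tamoxifen and 498 oil UMIs. The part of alveolar macrophage RNA in the result was not tested.

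In the Mgl2/Cd209a gate, 7 of 35 measured members were at least 1.5-fold higher in tamoxifen and 2 that much lower, beside 6.74% and 4.97% of genes. Samd9l (60.2 CPM in tamoxifen and 70.3 CPM in oil, -0.22), Bst2 (58.7 and 67.3 CPM, -0.20) and Trim30a (56.6 and 53.7 CPM, 0.083) were close. Rsad2 had 73 UMIs (3.79 CPM) in tamoxifen and 17 UMIs (0.73 CPM) in oil (2.38, 1.60 to 3.23), but 1 cell gave 34 of the 73. Ifit3 had 68 and 24 UMIs (1.78), Ifit1 36 and 17 UMIs (1.36) and Irf7 130 and 99 UMIs (0.67, 0.28 to 1.06). Ifitm3 was at 225 CPM in tamoxifen and 357 CPM in oil (-0.67, -0.72 to -0.61), and Ifi27l2a at 218 and 293 CPM (-0.43). In barcodes of the Mgl2/Cd209a gate alone the sum of all members was 0.018, Ifi27l2a 0.16 and Bst2 0.20, so their sign turned. So did that of the sum over the whole gate without the 3 most abundant members (0.027), and both sums lay close to no difference. The inducible sum was 54.6 CPM in tamoxifen and 36.3 CPM in oil (0.59, 0.46 to 0.72), and 0.042 without the 1% of cells with the most. Alveolar macrophage markers summed to 934 CPM in tamoxifen and 387 CPM in oil in this gate and neutrophil markers to 518 and 14.4 CPM, and their part was not tested.

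In the T gate, 8 of 36 measured members were at least 1.5-fold higher in tamoxifen and 2 lower, beside 9.31% and 7.66% of genes. Ifit1 had 152 UMIs (4.29 CPM) in tamoxifen and 42 UMIs (2.01 CPM) in oil (1.09, 0.59 to 1.62), and Ifit3 had 88 and 26 UMIs (1.00). Cmpk2 had 61 and 14 UMIs (1.36, 0.51 to 2.32) and Rtp4 200 and 68 UMIs (0.80). Mx1 had 73 UMIs in tamoxifen and 65 in oil (-0.59, -1.10 to -0.09), and Ifitm3 was at 108 CPM in tamoxifen and 162 CPM in oil (-0.59). The abundant Ifi27l2a (176 and 159 CPM), Samd9l (70.6 and 74.2 CPM), Parp14 (49.5 and 43.9 CPM) and Bst2 (43.4 and 45.6 CPM) lay within 0.2 of no difference. Ifitm3 turned to 0.18 in barcodes of the T gate alone, and Mx1 to 0.67 in male cells. The inducible sum was 63.9 CPM in tamoxifen and 52.4 CPM in oil (0.29, 0.18 to 0.39), and was 0.062 without the 1% of cells with the most. All 5 neutrophil markers summed to 3156 CPM in tamoxifen and 376 CPM in oil in this gate, and without barcodes that held at least 3 UMIs of S100a8 and S100a9 the inducible ratio was 0.34. Alveolar macrophage markers summed to 1998 CPM in tamoxifen and 529 CPM in oil, and their part was not tested.

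In the alveolar macrophage gate, 12 of 36 measured members were at least 1.5-fold higher in tamoxifen and 8 lower, beside 11.7% and 11.0% of genes. Ifi27l2a was at 107 CPM in tamoxifen and 50.7 CPM in oil (1.08, 0.91 to 1.25). Oas3 had 56 UMIs and 2 UMIs (2.67, 0.75 to 5.75), Rsad2 59 and 3 (2.16, 0.55 to 4.48) and Oasl2 133 and 12 (1.34). For Rsad2, 1 cell gave 21 of the 59 tamoxifen UMIs. The inducible sum was 32.7 CPM in tamoxifen and 25.4 CPM in oil (0.36, 0.12 to 0.62). In that sum 1 cell held 120 of the 898 tamoxifen UMIs and 1 cell 38 of the 159 oil UMIs. Lower in tamoxifen were Ifitm3 (27.5 against 85.0 CPM, -1.63), Phf11b (10.9 against 29.0 CPM, -1.42), Slfn5 (17.4 against 38.9 CPM, -1.16) and Ifi209 (4.63 against 10.2 CPM, -1.15). In this gate 36.0% of tamoxifen barcodes and 47.9% of oil barcodes passed another gate as well, and in barcodes of the alveolar gate alone Ifi209 (0.69) and Phf11b (0.059) were no longer lower. Trim30a (69.3 and 60.8 CPM), Parp14 (47.8 and 35.1 CPM) and Samd9l (46.8 and 60.5 CPM) differed by less than 1.5-fold. Samd9l turned to 0.49 when thinned to 1500 UMIs and to 0.037 in male cells, and Trim30a to -0.070 in male cells. Markers of 3 other cell types were lower in tamoxifen in this gate, at 497 CPM against 907 CPM in oil for type 1 dendritic cells, 1237 against 1925 CPM for type 2 and 468 against 708 CPM for C1q macrophages, while T cell markers stood at 320 against 231 CPM and neutrophil markers at 102 against 34.9 CPM. Their part in these values was not tested.

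In the B gate, 7 of 21 measured members were at least 1.5-fold higher in tamoxifen and 2 lower, beside 15.8% and 4.74% of genes. Ifitm3 was at 36.8 CPM in tamoxifen and 14.2 CPM in oil (1.37, 0.84 to 1.93), Zbp1 had 149 and 52 UMIs (0.96) and Stat2 had 70 and 26 UMIs (0.87, 0.20 to 1.58). Among the abundant members Ifi27l2a was at 200 CPM in tamoxifen and 166 CPM in oil (0.27), Samd9l at 91.1 and 82.0 CPM (0.15), Bst2 at 66.8 and 72.8 CPM (-0.12), Parp14 at 47.5 and 38.1 CPM (0.32) and Trim30a at 39.7 and 26.6 CPM (0.58, 0.16 to 1.01). Trim30a turned to -0.10 when thinned to 1500 UMIs, and in male cells the sum of all members turned to -0.42 and Ifi27l2a to -1.17. Isg15 went the other way, with 54 UMIs (14.1 CPM) in tamoxifen and 112 UMIs (43.1 CPM) in oil (-1.61, -2.11 to -1.13). It was found in 5.54% of tamoxifen and 6.44% of oil cells, and 1 oil cell gave 50 of the 112 UMIs. Phf11b was at 20.1 CPM in tamoxifen and 32.3 CPM in oil (-0.69). Alveolar macrophage markers summed to 469 CPM in tamoxifen and 60.4 CPM in oil in this gate, and their part was not tested. The inducible sum was 38.1 CPM in tamoxifen and 58.9 CPM in oil (-0.63), and turned to 0.28 without the 1% of cells with the most. Scaled to the median gene, ratios would be lower by 0.16 in the B gate and by 0.12 in the alveolar macrophage gate, and by under 0.1 in the others.

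In the Ncr1/Klre1 gate, 1 of 26 measured members was at least 1.5-fold higher in tamoxifen and 8 lower, beside 9.66% and 9.03% of genes. The 1 that was higher was Irf9, at 28.4 CPM in tamoxifen and 18.1 CPM in oil (0.65, 0.08 to 1.23), and it turned to -0.16 in barcodes of this gate alone. Isg15 had 31 UMIs (14.9 CPM) in tamoxifen and 91 UMIs (33.7 CPM) in oil (-1.17, -1.81 to -0.57). Rsad2, also among the 8 lower, had 0 UMIs in tamoxifen and 27 in oil, 18 of them in 1 cell. Ifit3 had 1 UMI in tamoxifen and 21 in oil (-4.01, -9.38 to -1.37), 13 of the 21 in 1 cell, while Parp14 was at 35.7 and 55.5 CPM (-0.64) and Ifitm3 at 93.5 and 141 CPM (-0.60), which turned to 1.44 in barcodes of this gate alone. The other abundant members differed by less: Ifi27l2a was at 146 CPM in tamoxifen and 132 CPM in oil (0.15), Samd9l had 168 and 265 UMIs (-0.28), Bst2 was at 64.6 and 64.4 CPM and Trim30a at 55.9 and 53.6 CPM. The inducible sum was 41.9 CPM in tamoxifen and 106 CPM in oil (-1.34, -1.70 to -0.99), and -0.61 without the 1% of cells with the most. In oil 1 cell held 99 of the 287 UMIs. Alveolar macrophage markers summed to 876 CPM in tamoxifen and 388 CPM in oil in this gate, and their part was not tested.

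In the Xcr1/Clec9a gate, 4 of 31 measured members were at least 1.5-fold higher in tamoxifen and 4 lower, beside 10.0% and 4.54% of genes. Rtp4 had 22 UMIs in tamoxifen and 3 in oil (2.59, 0.86 to 4.98). Ifitm3 was at 66.4 CPM in tamoxifen and 106 CPM in oil (-0.67), Phf11d at 5.85 and 10.7 CPM (-0.87) and Mx1 at 4.70 and 7.34 CPM (-0.64). Ifi27l2a was at 111 CPM in tamoxifen and 143 CPM in oil (-0.37), Samd9l at 92.6 and 112 CPM (-0.27), Phf11b at 60.6 and 87.0 CPM (-0.52) and Trim30a at 69.6 and 68.8 CPM. Samd9l turned to 0.17 when thinned to 1500 UMIs. The inducible sum was 33.3 CPM in tamoxifen and 33.8 CPM in oil, but 0.45 (0.14 to 0.77) in female and -0.60 (-1.01 to -0.19) in male cells, a difference that was not tested. Alveolar macrophage markers summed to 1164 CPM in tamoxifen and 210 CPM in oil in this gate, neutrophil markers to 74.2 and 4.78 CPM and B cell markers to 64.5 and 350 CPM, and their part was not tested. In the Dcn/Col1a2 gate, of 85 tamoxifen and 99 oil cells, 3 of 20 measured members were at least 1.5-fold higher and 6 lower, beside 11.3% and 10.2% of genes. Ifitm3 was highest here, at 1226 CPM in tamoxifen and 1507 CPM in oil (-0.30). Ifi27l2a was at 164 CPM in tamoxifen and 165 CPM in oil, Bst2 at 76.5 and 91.2 CPM (-0.25) and Slfn5 at 49.2 and 64.0 CPM (-0.38). Phf11b had 5 UMIs in tamoxifen and 30 in oil (-2.33), Samd9l 24 and 55 (-0.94) and Ifih1 9 and 24 (-1.16). The inducible sum of this gate was 95.3 CPM in tamoxifen and 68.4 CPM in oil (0.48, 0.03 to 0.93), and 1 cell held 24 of the 91 tamoxifen UMIs. The 4 epithelial markers summed to 2988 CPM in tamoxifen and 84.2 CPM in oil in this gate, and their part in these values was not tested.

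Upstream of the members, interferon ligands were barely present. Of 20 ligand genes, Ifnb1 had 0 UMIs in tamoxifen and 2 in oil over all kept cells, Ifnk 3 and 0, and Ifnz 2 and 1, while the other 17 had none in either library. Both subunits of the receptor were found, Ifnar1 at 85.3 CPM in tamoxifen and 104 CPM in oil (-0.28) and Ifnar2 at 68.6 and 77.3 CPM (-0.17).

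Among 48 further interferon-stimulated genes, 44 were measured in the C1q gate, of which 9 were at least 1.5-fold higher and 1 lower in tamoxifen, with a median ratio of 0.19, beside the 8.23% and 6.42% of genes given above. Slfn1, of the Schlafen growth-regulating family, had 105 UMIs in tamoxifen and 11 in oil (3.07, 2.18 to 4.12), and Ifit3b 61 and 5 (3.43, 2.13 to 5.10). Trim30b, a relative of Trim30a, had 33 and 59 (-1.02, -1.68 to -0.38). In the T gate 9 of 46 were higher and 1 lower, beside 9.31% and 7.66% of genes, among them Ifitm6 with 891 UMIs in tamoxifen and 81 in oil (2.70), Ifitm1 with 1572 and 265 (1.81) and Slfn4 with 107 and 18 (1.81), in barcodes that carried the neutrophil RNA given above. In the Mgl2/Cd209a gate Ifit3b had 21 UMIs in tamoxifen and 4 in oil (2.67) and Slfn1 62 and 33 (1.18), while Phf11a had 86 and 233 (-1.16). In the Xcr1/Clec9a gate Tlr7, a receptor for single-stranded RNA, had 65 UMIs in tamoxifen and 9 in oil (2.57, 1.56 to 3.76), in a gate where 29.7% of tamoxifen and 19.7% of oil barcodes also passed the alveolar macrophage gate. In the Ncr1/Klre1 gate Slfn1 had 25 and 8 UMIs (2.03), Tlr3, a receptor for double-stranded RNA, 114 and 65 (1.19) and Parp12 8 and 27 (-1.37). In the B gate Socs1, an inhibitor of the receptor's kinases, had 204 UMIs in tamoxifen and 63 in oil (1.13, 0.72 to 1.57), and Lgals3bp 55 and 9 (2.05). In the Dcn/Col1a2 gate Psmb9, an immunoproteasome subunit, was at 50.3 CPM in tamoxifen and 98.3 CPM in oil (-0.97), and Epsti1 had 10 and 33 UMIs (-1.47). Over all kept cells Socs3, which inhibits cytokine receptors, was at 138 CPM in tamoxifen and 232 CPM in oil (-0.74). In alveolar macrophages Samhd1, an enzyme that depletes nucleotides, was at 281 CPM in tamoxifen and 176 CPM in oil (0.68), and Tlr3 at 19.3 and 50.4 CPM (-1.39).

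The 1206 tamoxifen and 1233 oil cells in no gate had summed members of 2065 CPM in tamoxifen and 1581 CPM in oil (0.39, 0.34 to 0.43). In them 13 of 34 measured members were at least 1.5-fold higher in tamoxifen and 1 lower, beside 10.0% and 15.0% of genes. Ifi27l2a was at 276 CPM in tamoxifen and 94.3 CPM in oil (1.55), Zbp1 at 28.7 and 8.15 CPM (1.82), Rsad2 had 77 and 22 UMIs (1.81) and Ifi204 was at 35.6 and 13.7 CPM (1.38). Ifitm3 (755 CPM in tamoxifen and 665 CPM in oil, 0.18), Slfn5 (170 and 171 CPM), Bst2 (102 and 95.4 CPM) and Parp14 (80.4 and 68.9 CPM) were closer. Mx1 was at 12.4 CPM in tamoxifen and 18.7 CPM in oil (-0.60). The 5 neutrophil markers summed to 9126 CPM in tamoxifen and 418 CPM in oil in these cells and the 4 epithelial markers to 1089 and 2755 CPM, and their part in the values was not tested. Here too the inducible sum was higher in female cells (269 against 103 CPM, 1.39) and lower in male cells (85.7 against 153 CPM, -0.84).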

How the data were processed

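The deposited 10x matrices hold UMI counts, whole numbers for each gene in each barcode. Cell Ranger 5.0.1 and GRCm38 (mm10) are named by the submitters' processing notes, and the annotation was not given in the sources used here. Gene positions came from GENCODE M21 and promoters from RefSeq. Barcodes with at least 300 genes and under 10% mitochondrial UMIs were kept, and no doublets were removed in the values reported. UMIs were summed per library and gate and scaled to CPM. Ratios carry an exact conditional 95% interval for 2 Poisson counts, and shares a Clopper-Pearson interval. A gene was measured with at least 20 UMIs over both libraries, 0.5 UMI stood in place of 0 in medians, and a difference was called from 1.5-fold. With 1 library per group no test was made. Thinning drew UMIs at random without replacement, with a separate draw for the shares over all genes. Interval coverage was checked on simulated Poisson counts, the form that the interval assumes. That check could not show coverage where UMIs are clumped in few cells.

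The members, the 12 inducible members, the gates and the pathway list were chosen with earlier results of these data known. Per gate, the 5 members with most UMIs were named, and up to 4 members and 3 pathway genes each way past 1.5-fold whose interval left out 0. A gene with no UMI in a library had no ratio and was left out of that ranking. The other members of the C1q gate were named as well, and so was Rsad2 in the Ncr1/Klre1 gate. A result that the rule would name is not reported here. Reads from near-identical copies (Ifit3 and Ifit3b, the Oas1, Phf11, Slfn and Ifi200 families) are uncertain. Python 3.11.15, numpy 2.4.6, scipy 1.17.1, pandas 2.3.3 and scanpy 1.11.5 (Scrublet) were used.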

Additional observations from a re-analysis of the deposited data

Results flagged for a closer look

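Female and male cells of the same gate went in opposite directions for 10 results, each with 1 value per sex, with counting intervals that both left out 0, and none of these differences was tested. The summed members of the T gate had a log2 ratio of 0.036 in female and -0.090 in male cells. The summed members of the B gate had 0.30 in female and -0.42 in male cells, and Ifi27l2a there 0.42 and -1.17. In the C1q gate the summed members had 0.28 in female and -0.41 in male cells. Isg15 had 2.39 and -0.87, Irf7 2.33 and -2.17, and Ifitm3 0.17 and -0.39 in that gate. The inducible sum had 1.94 in female and -0.87 in male cells of the C1q gate, 0.45 and -0.60 in the Xcr1/Clec9a gate, and 1.39 and -0.84 in the cells of no gate.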

How the results depend on the processing

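All values here are log2 ratios of tamoxifen over oil unless named otherwise, and the cause of each shift was not tested. A sign was called turned where the main interval left out 0, whether or not the interval of the new value did. No paired analysis was possible because each group has 1 library and no replicate number. In barcodes of exactly 1 gate the summed members were 0.18 (T), -0.14 (Ncr1/Klre1), 0.085 (B), 0.27 (alveolar), 0.86 (C1q), -0.36 (Xcr1/Clec9a) and -0.12 (all kept). In the Mgl2/Cd209a gate the sign changed, to 0.018, a value close to no difference. There the C1q inducible sum was 2.13, the medians were -0.76 (Ncr1/Klre1), -0.051 (B), 0.94 (C1q), 0.39 (Mgl2/Cd209a) and 0.36 (Dcn/Col1a2), and the signs turned for Ifitm3 in T (0.18), Ncr1/Klre1 (1.44) and C1q (0.38), Irf9 in Ncr1/Klre1 (-0.16), Ifi209 (0.69) and Phf11b (0.059) in alveolar, Ifi27l2a in C1q (1.21) and Mgl2/Cd209a (0.16), and Bst2 in Mgl2/Cd209a (0.20). Without top Scrublet scores (822 of 10138 tamoxifen and 369 of 6794 oil cells) sums were 0.034 (T), 0.20 (C1q), -0.24 (Mgl2/Cd209a) and -0.40 (Dcn/Col1a2), the C1q inducible sum 1.84, the Dcn/Col1a2 inducible sum -0.10 and Ifitm3 in C1q 0.071. With gate limits raised by 1 UMI, sums were 0.063 (T), 0.031 (alveolar), -0.31 (Mgl2/Cd209a) and -0.35 (Dcn/Col1a2).

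Thinned to 1500 UMIs, sums were -0.083 (T), 0.33 (B), -0.29 (Xcr1/Clec9a), -0.24 (Mgl2/Cd209a) and -0.22 (all kept), inducible sums -0.072 (T), 0.32 (B) and 1.07 (C1q), medians -0.073 (B) and -0.12 (Mgl2/Cd209a), and Trim30a in B -0.10, Samd9l in alveolar 0.49 and in Xcr1/Clec9a 0.17. Pairs past 1.5-fold were then 17 higher and 17 lower. Under median-of-ratios scaling sums were -0.076 (T), 0.037 (B), -0.14 (alveolar), 0.034 (C1q), -0.27 (Xcr1/Clec9a), -0.33 (Mgl2/Cd209a) and -0.25 (all kept). Female cells gave sums of 0.036 (T), 0.30 (B), 0.28 (C1q), -0.095 (Xcr1/Clec9a), -0.12 (Mgl2/Cd209a) and -0.039 (all kept), a C1q inducible sum of 1.94 and Ifitm3 in C1q at 0.17. Male cells gave sums of -0.090 (T), -0.42 (B), -0.18 (alveolar), -0.41 (C1q), -0.45 (Xcr1/Clec9a), -0.44 (Mgl2/Cd209a) and -0.46 (all kept), inducible sums of -0.87 (C1q) and -0.30 (Dcn/Col1a2), medians of -0.34 (C1q) and -0.32 (Xcr1/Clec9a) and 19 pairs higher. Signs turned in male cells for Mx1 in T (0.67), Ifi27l2a in B (-1.17), Trim30a (-0.070) and Samd9l (0.037) in alveolar, and Isg15 (-0.87), Irf7 (-2.17) and Bst2 (-0.30) in C1q.

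Without neutrophil RNA, an alternative added after seeing the data, sums were -0.051 (T), -0.085 (alveolar), 0.030 (C1q) and -0.23 (all kept), and the C1q inducible sum 1.31. As means over cells sums were -0.10 (T), -0.35 (Ncr1/Klre1), 0.30 (B), 0.023 (C1q), -0.33 (Dcn/Col1a2) and -0.26 (all kept), and inducible sums -0.26 (T), 0.15 (B), 1.13 (C1q) and -0.049 (all kept). Without the 3 members with most UMIs sums were 0.092 (T), -0.23 (alveolar), 0.39 (C1q), -0.11 (Xcr1/Clec9a), 0.027 (Mgl2/Cd209a), -0.087 (Dcn/Col1a2) and 0.056 (all kept). Without the cell with most member UMIs the Dcn/Col1a2 sum was -0.32, with the same mix of gates the sum over barcodes of 1 gate or none was 0.25, and without the 1% of cells with most inducible UMIs (also added after seeing the data) the inducible sums were 0.28 (B) and 1.31 (C1q). By sex, without the cell with the most in each library, the male Mgl2/Cd209a inducible sum turned to -0.17. At 2-fold 28 pairs were higher and 16 lower, and with at least 50 UMIs 19 were lower. The share over all genes was not computed at 50 UMIs, so the 19 cannot be set beside it. Cells with at least 3 inducible members were, thinned to 3000 UMIs, 0.66% (tamoxifen) and 0.46% (oil) of all kept and 0.54% of C1q-gate oil cells, and not thinned 1.97% and 1.22% of all kept and 6.02% and 1.31% of C1q-gate cells. With at least 2 they were 0.98% and 0.60% of all kept and 2.18% of C1q-gate tamoxifen cells, and with at least 4 they were 0.13% of all kept and 0.40% of C1q-gate tamoxifen cells. The other 186 comparisons of a summary value with an alternative stayed within a set limit. For sums and shares the limit was the counting interval of the main value, and for counts of pairs it was 1.5-fold. For medians it was an interval taken from the spread of the member ratios, so a median could shift within that spread and still count as unmoved. Of further comparisons, for named members and the other inducible sums, 690 stayed within the counting interval of the main value. Another 147 moved outside it and 30 changed sign, and not all of the 147 are listed.

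Few inducible members reached 20 UMIs in some gates: 2 of 12 in the B gate, 3 of 12 in the Dcn/Col1a2 gate, 7 of 12 in the Ncr1/Klre1 gate and 8 of 12 in the Xcr1/Clec9a gate.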
